A study of Mus musculus with 2 samples.

Results

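The 10 genes described here encode interleukin-1 alpha and beta (Il1a, Il1b), the antagonist of their receptor (Il1rn), interleukin-6 (Il6), tumour necrosis factor (Tnf), the neutrophil attractants Cxcl1, Cxcl2 and Cxcl3, the inflammasome sensor Nlrp3 and cyclooxygenase-2 (Ptgs2). They were chosen by name, and all 10 are among the 31053 genes of both count matrices. C57BL/6 mice received GL261 cells, a mouse glioma line, into the brain. They drank either DW control water or metformin in drinking water, and both groups carried the tumour. At day 20 the tissue around the tumour was taken, and cells high in CD45, a surface protein of leukocytes, were sorted from it. Libraries were made by droplet capture with 3' tags (10x Genomics, v3 chemistry). Each group is 1 library. The dose, the sex, the sort gates and the number of mice behind a library are not given in the labels, so no difference below has a replicate check, no p-value is given, and every interval covers counting error only.

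Interleukin-1 alpha and beta act through the same receptor, which signals through MyD88 and NF-kB and induces interleukin-6, cyclooxygenase-2 and the neutrophil attractants in many cells. Interleukin-1 beta is made as an inactive precursor that caspase-1 cuts after an inflammasome such as that of NLRP3 has assembled, whereas interleukin-1 alpha is active without that cut. Interleukin-1 receptor antagonist occupies the receptor without signalling. CXCL1, CXCL2 and CXCL3 bind CXCR2, a receptor carried mainly by neutrophils, and cyclooxygenase-2 makes the precursor of prostaglandin E2. Transcripts are measured here, not cleaved or secreted protein.

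The chemokine genes lie side by side on mouse chromosome 5 (GRCm38), all on the + strand: Cxcl3 at chr5:90786103-90789600, Cxcl1 at chr5:90891241-90893115 and Cxcl2 at chr5:90903871-90905938. The gap from Cxcl1 to Cxcl2 is 10755 bases and that from Cxcl3 to Cxcl1 is 101640 bases. Il6 lies on the same chromosome (chr5:30013114-30019981, + strand), while Il1a and Il1b are neighbours on the - strand of chromosome 2 (chr2:129299610-129309972 and chr2:129364570-129371139), with 54597 bases between them. Il1rn (chr2:24336853-24351494), Tnf (chr17:35199381-35202007), Nlrp3 (chr11:59541568-59566956) and Ptgs2 (chr1:150100031-150108227) lie apart from them. No other gene overlaps any of the 10 on the same strand, and 2 have a gene on the other strand, Gm14023 at Il1a and Il1bos at Il1b.

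The 4 genes on chromosome 5 are shown with the last 120 bases before the earlier of their annotated starts. They were chosen because the 3 attractants share a run there that few mouse promoters hold and Il6 has a related one. Sequences are from RefSeq (GRCm38.p6, + strand, 5′ to 3′), and capitals mark matches to the NF-kB consensus on either strand.
Cxcl1, chr5:90891121-90891240: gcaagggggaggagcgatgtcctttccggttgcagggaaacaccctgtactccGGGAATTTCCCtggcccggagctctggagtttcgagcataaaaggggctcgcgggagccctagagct
Cxcl2, chr5:90903751-90903870: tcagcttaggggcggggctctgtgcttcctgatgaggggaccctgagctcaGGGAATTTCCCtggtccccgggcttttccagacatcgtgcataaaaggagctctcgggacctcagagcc
Cxcl3, chr5:90785981-90786100: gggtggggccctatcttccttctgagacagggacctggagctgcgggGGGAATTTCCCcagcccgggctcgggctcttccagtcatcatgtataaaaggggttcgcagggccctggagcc
Il6, chr5:30012994-30013113: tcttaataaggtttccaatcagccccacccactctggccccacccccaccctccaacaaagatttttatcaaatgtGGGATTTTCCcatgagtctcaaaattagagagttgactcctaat

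The longest run that the 250-base windows of Cxcl1, Cxcl2 and Cxcl3 all hold is GGGAATTTCCC, 11 bases that also make up the capitals above. Of 32851 promoter windows in the table, 14 held it on either strand (0.0426%), and 3 of these are the attractants. It begins 71 bases before the RefSeq start of Cxcl1, 97 before that of Cxcl2 and 73 before that of Cxcl3. For Cxcl1 and Cxcl2 the RefSeq start lies further on than the end of the stretch shown. The NF-kB consensus, which overlaps it on both strands, was in 3.90% of windows and in 5 of the 10 genes, namely the attractants, Il6 (44 bases before the start) and Nlrp3. TGANTCA, the AP-1 motif, was in 6.75% of windows and in Il1a, Il1rn and Il6. ATAAAA, the core of a TATA box, was on either strand in 17% of windows and 8 of the genes. In Il1rn and Il6 it was on the other strand only, where it does not read as a TATA core. In Nlrp3 it began 111 bases before a start. A match shows only that the letters are there. No pair of the attractants' windows shares a run longer than 14 bases. The last 400 bases of their transcripts, which 3' tags come from, share no run longer than 16 bases, although Cxcl2 and Cxcl3 share a run of 110 bases further up.

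After filters, 5373 control and 4569 metformin cells remained, with 46751843 and 44088764 UMIs. UMIs count captured RNA molecules. Only 9 cell barcodes occurred in both libraries, 8 of them among the kept cells. Clustering without the 10 genes gave 27 clusters, and the 9 myeloid classes that had 20 or more cells on either side were compared, 2043 control and 1805 metformin cells in all. Names rest on markers and mean "like" the named type. The classes, with control and metformin cells, were microglia (921 and 653), C4b/Ccl12 microglia (356 and 361), Ccl3/Hmox1 microglia (84 and 64), macrophages (359 and 342), Pf4/Mrc1 macrophages (51 and 73), monocytes (93 and 46), conventional dendritic cells (114 and 161), mature dendritic cells (44 and 70) and plasmacytoid dendritic cells (21 and 35).

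The marker lists supported most of these names, and 2 classes are called by their leading genes. The summed microglia markers were 28826 and 27512 CPM in microglia, 18026 and 15966 in C4b/Ccl12 microglia and 11605 and 11914 in Ccl3/Hmox1 microglia, against 775 and 999 in macrophages. CPM are UMIs per 1000000 UMIs of the class sum in a library, and the control value stands first. Such a sum cannot tell fewer cells with a transcript from less of it per cell, so shares of cells are given beside it. More macrophage than microglia markers stood among the 10 leading genes of the C4b/Ccl12 class, and no marker of either type among those of the Ccl3/Hmox1 class, which Il1a headed. Macrophages were led by Tgfbi, Arg1 and Ly6i, with Il1rn among their 10 leading genes, and Pf4/Mrc1 macrophages by Cxcl2, Ccl7 and Pf4. Neutrophil markers summed to no more than 285 CPM in any of the 9 classes, against 232928 and 312942 CPM in the 45 and 6 neutrophils. Since CD45 is lower on microglia than on leukocytes from blood, the sort can set the number of cells in a class.

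Il1a was highest in 2 of the microglial states. In the Ccl3/Hmox1 microglia it reached 2156 CPM in control (95% Poisson interval 2059 to 2256) and 1673 CPM in metformin (1585 to 1764). With every cell thinned to 3700 UMIs, so that depth is equal, 94.0% and 91.9% of these cells held an Il1a UMI. The C4b/Ccl12 microglia followed at 239 and 192 CPM, and the other microglia held 72.6 and 74.1 CPM with 20.6% and 21.6% of thinned cells positive. The 3 microglial classes together held most Il1a UMIs, the Ccl3/Hmox1 class alone 47.0% of those in both libraries. Pf4/Mrc1 macrophages, at 80.5 and 139 CPM, and macrophages, at 61.2 and 99.5 CPM, stood beside microglia in ranges that overlap, and monocytes showed 1 UMI in each library. In B cells, which should lack most of the 10 genes and show free RNA, Il1a stood at 3.59 and 2.26 CPM and in 1.48% and 1.33% of thinned cells, at median depths of 5637 and 5248 UMIs.

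**Figure D1:**
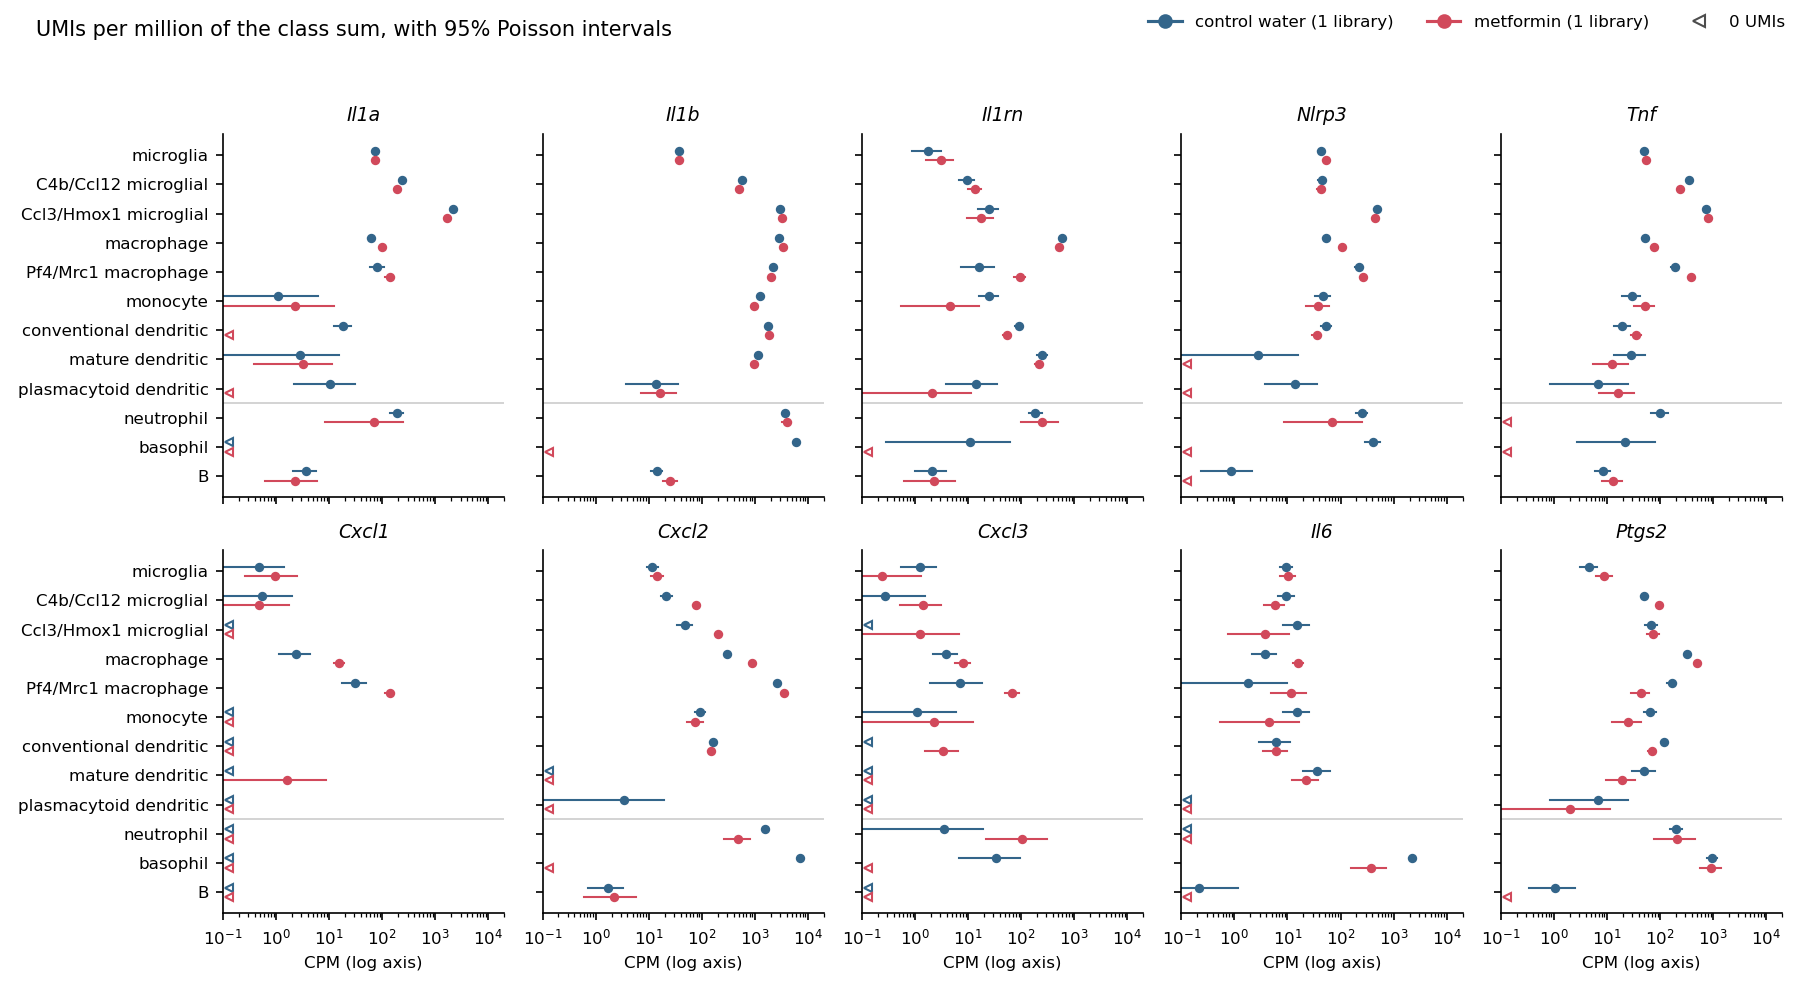
Level of each gene by class, in CPM on a log axis, with points for the control water (blue) and metformin (red) libraries, lines for 95% Poisson intervals and open triangles for 0 UMIs. The line separates the 9 compared classes from neutrophils, basophils and B cells. Il1a peaks in Ccl3/Hmox1 microglia at 2156 and 1673 CPM, while Il1rn peaks in macrophages at 585 and 514 CPM.

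Il1b was spread over a different set of cells. Macrophages held 2928 CPM in control (2877 to 2980) and 3359 CPM in metformin (3308 to 3410), and 52.8% of all Il1b UMIs. The Ccl3/Hmox1 microglia held 3063 and 3230 CPM, a range that lies inside that of macrophages, so the order of these classes is not resolved. Pf4/Mrc1 macrophages followed at 2222 and 2018 CPM, conventional dendritic cells at 1816 and 1889, monocytes at 1243 and 962, and mature dendritic cells at 1155 and 976. At 37.7 and 38.1 CPM microglia were far below, against 14.2 and 25.4 CPM in B cells. Thinned cells positive for Il1b made up 81.8% and 79.2% of macrophages but 7.11% and 8.53% of microglia and 4.12% and 4.89% of B cells. Neutrophils, not compared because 6 metformin cells are too few, held 3720 and 4037 CPM.

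Counts of Il1b for each Il1a count therefore changed greatly between classes: 0.520 and 0.514 in microglia, 1.42 and 1.93 in Ccl3/Hmox1 microglia, 2.44 and 2.63 in C4b/Ccl12 microglia, and 47.9 and 33.8 in macrophages. Since the capture of each gene differs, only the change of such a ratio between classes can be read. The lowest ratio was that of the class with the highest microglia markers.

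Il1rn, whose product blocks the interleukin-1 receptor, was concentrated in macrophages. They held 585 CPM in control (562 to 609) and 514 CPM in metformin (494 to 534), and 82.9% of all Il1rn UMIs. Mature dendritic cells were next at 250 and 221 CPM, and conventional dendritic cells held 90.4 and 53.4 CPM. In microglia it stood at 1.74 and 3.08 CPM, about the 2.11 and 2.26 CPM of B cells, which is the level of free RNA. The Ccl3/Hmox1 microglia, rich in Il1b, held 24.5 and 17.3 CPM, from 21 and 14 UMIs.

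As a result the classes rich in Il1b differed in the antagonist. Macrophages had 5.0 Il1b counts for each Il1rn count in control (4.79 to 5.23) and 6.54 in metformin (6.27 to 6.81). Mature dendritic cells had 4.63 and 4.41. Conventional dendritic cells had 20.1 and 35.4, and the Ccl3/Hmox1 microglia 125 (81.5 to 202) and 187 (111 to 342). Pf4/Mrc1 macrophages had 138 in control but 21.3 in metformin, from 9 and 66 Il1rn UMIs. Within macrophages both transcripts were often in the same cell: Il1rn was found in 64.7% of Il1b-positive and 48.3% of Il1b-negative thinned control cells, and in 59.5% and 31.8% in metformin.

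**Figure D2:**
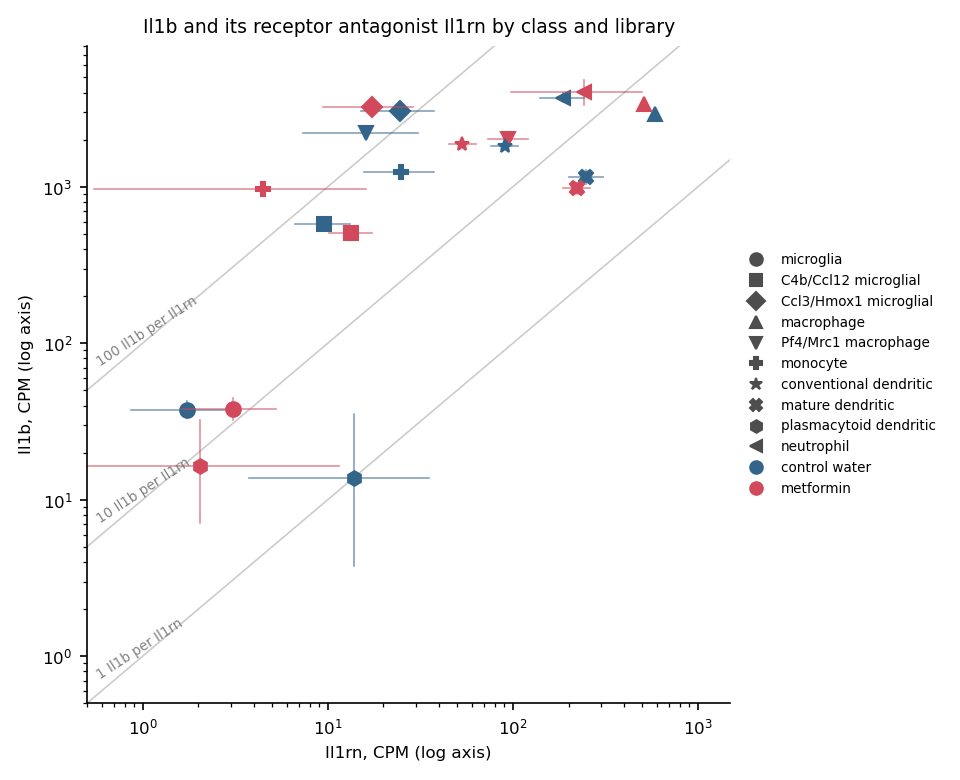
Il1b against Il1rn in CPM, both on log axes, by class (symbol) and library (control water blue, metformin red), with 95% Poisson intervals and grey lines of equal ratio. Macrophages lie at 5.0 and 6.54 Il1b counts for each Il1rn count, and Ccl3/Hmox1 microglia at 125 and 187.

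Nlrp3 followed the microglial pattern of Il1a in part. The Ccl3/Hmox1 microglia held 482 and 449 CPM, with 65.1% and 66.1% of thinned cells positive, and Pf4/Mrc1 macrophages 225 and 267 CPM. Macrophages held 54.0 and 109 CPM, and C4b/Ccl12 microglia 44.0 and 42.2 CPM. Mature dendritic cells, which held Il1b at 1155 and 976 CPM, showed 1 Nlrp3 UMI in control and 0 in metformin, which allows up to 4.74 CPM in the latter by a floor of 3 UMIs. Nlrp3 encodes the sensor whose complex activates caspase-1.

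Tnf, the gene of a cytokine that signals through TNFR1 and TNFR2, was highest in the Ccl3/Hmox1 microglia at 754 and 811 CPM. The C4b/Ccl12 microglia held 360 and 241 CPM, and Pf4/Mrc1 macrophages 193 and 389 CPM, so their ranges overlap. Macrophages stood at 52.8 and 75.6 CPM, a low level beside their Il1b, and microglia at 49.3 and 54.0 CPM. Among C4b/Ccl12 microglia, Tnf was found in 44.2% of Il1a-positive and 25.7% of Il1a-negative thinned control cells and in 46.8% and 22.3% in metformin.

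Among the 9 compared classes, the neutrophil attractants were highest in the macrophage classes. Cxcl2 reached 2663 CPM (2529 to 2801) and 3607 CPM (3467 to 3751) in Pf4/Mrc1 macrophages and 307 and 905 CPM in macrophages. Conventional dendritic cells held 165 and 147 CPM, and the microglial classes from 11.7 to 205 CPM. Mature dendritic cells showed 0 Cxcl2 UMIs in both libraries. Cxcl1 was rarer, at 30.4 and 138 CPM in Pf4/Mrc1 macrophages and 2.38 and 15.4 CPM in macrophages, and these classes held 47.5% and 36.6% of its 238 UMIs. Cxcl3 stood at 7.16 and 67.5 CPM in Pf4/Mrc1 macrophages and 3.81 and 8.02 CPM in macrophages, of 171 UMIs in all. No B cell held a UMI of Cxcl1 or Cxcl3. Outside these classes, 19 control basophils held Cxcl2 at 7298 CPM, 14.4% of the control UMIs. Of the 49 Cxcl3 UMIs in control, Pf4/Mrc1 macrophages held 8.16%, while microglia held 16.3% and gamma-delta T cells 14.3%.

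A few cells carried most of the chemokine RNA. In Pf4/Mrc1 macrophages, 3 control cells and 4 metformin cells held 50% of the Cxcl2 UMIs, and 1 cell held 60.4% of the Cxcl1 UMIs in metformin. Among macrophages, the richest 10% of cells held 93.9% and 86.2% of Cxcl2 UMIs, while the same share of cells held 43.9% and 43.3% of Il1b and 46.7% and 48.6% of Il1rn. Il1a was also concentrated there, with 85.2% and 79.0% in the richest 10%. Cxcl2 and Il1a shared cells: of thinned macrophages with Il1a, 42.4% and 51.0% held Cxcl2, against 12.2% and 21.6% of those without. A Poisson interval treats UMIs as independent, which they are not within a cell, so it is too narrow for genes held by few cells.

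**Figure D3:**
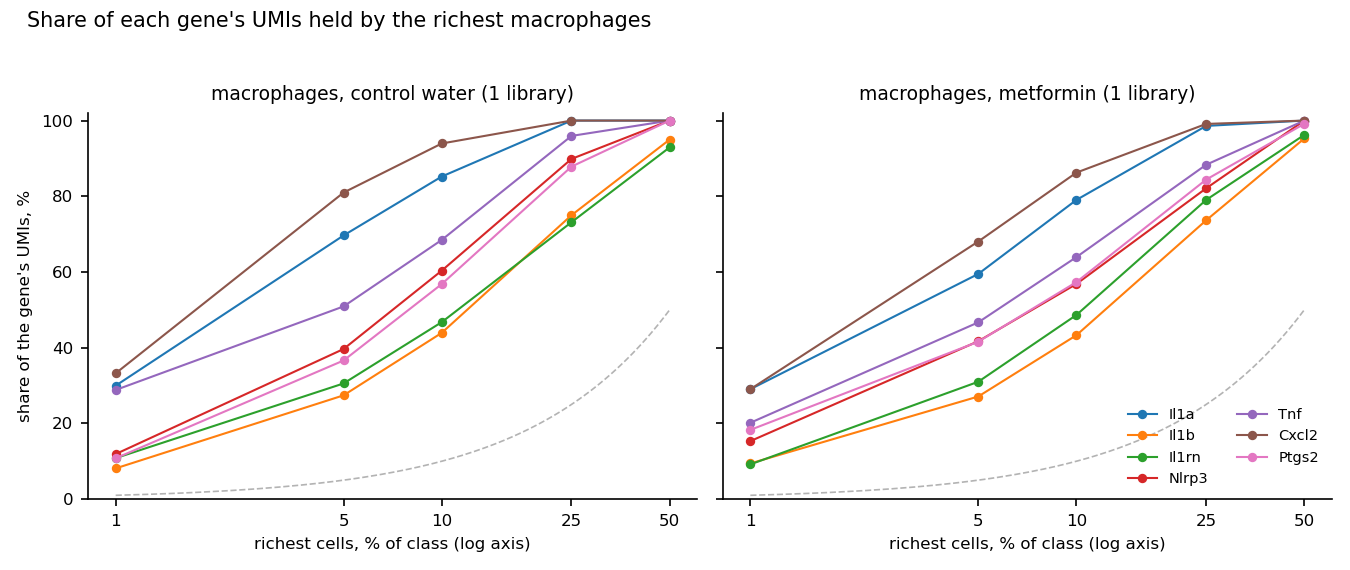
Share of each gene's UMIs held by the richest 1%, 5%, 10%, 25% and 50% of macrophages (log axis), in the control water (left) and metformin (right) libraries, for the 7 genes with enough UMIs. The dashed curve is an equal share for every cell. The richest 10% held 93.9% and 86.2% of Cxcl2 UMIs, against 43.9% and 43.3% for Il1b.

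Il6 was sparse in all compared classes. Mature dendritic cells were highest, at 36.5 and 22.1 CPM from 13 and 14 UMIs, and microglia held 9.35 and 10.2 CPM from 59 and 43 UMIs, mostly 1 UMI a cell. Over both libraries together, the largest source lay outside the compared classes: 19 control basophils held 202 of the 635 Il6 UMIs in the data, at 2244 CPM, and 17 of them had a UMI. Macrophages, at 3.81 and 15.8 CPM, held 4.15% of the 386 Il6 UMIs in control and 31.7% of the 249 in metformin. Interleukin-6 signals through gp130, and basophils are a rare granulocyte that also makes interleukin-4.

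Ptgs2 was highest in macrophages among the compared classes, with 329 CPM in control (312 to 347) and 493 CPM in metformin (473 to 513). Macrophages held 68.3% of all its UMIs. Outside these classes, the 19 control and 3 metformin basophils held it at 966 and 919 CPM. Thinned macrophages were positive in 36.8% and 43.4%, against 1.45% and 2.72% of microglia and 0.494% and 0% of B cells. Pf4/Mrc1 macrophages, conventional dendritic cells, C4b/Ccl12 microglia and Ccl3/Hmox1 microglia held from 43.1 to 166 CPM in ranges that overlap. In macrophages Ptgs2 was found in 42.8% of Il1b-positive and 10.0% of Il1b-negative thinned control cells, and in 50.8% and 15.2% in metformin.

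Between the libraries, the neutrophil attractants of macrophages stood higher in metformin while Il1b changed little. A gene is called higher or lower where the metformin over control ratio of CPM is at least 1.5-fold from 1, its exact 95% interval is without 1 and at least 20 UMIs were counted over both libraries. Of the 90 pairs of gene and class, 60 had enough UMIs, 16 were called higher and 7 lower. A rare gene such as Cxcl1 could reach 20 UMIs only through the library where it is high, so the pairs with enough UMIs are not all pairs, and their count is a description.

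In macrophages 6 of 10 genes were called higher and 0 lower, where 3.29% of all genes of that class were called higher and 3.67% lower. Of the 6, Cxcl1, Cxcl3 and Il6 were under the minimum of UMIs in control alone and passed it through metformin. The minimum itself could thus favour a higher ratio for them. Cxcl2 went from 1288 UMIs in control (307 CPM) to 4509 in metformin (905 CPM), a ratio of 2.95 (2.77 to 3.14), with 76 of 359 and 114 of 342 cells positive. Its thinned share was 15.2% and 26.1%. Cxcl1 went from 10 to 77 UMIs, a ratio of 6.49 (3.35 to 14.1), in 3 and 8 cells, and Cxcl3 from 16 to 40 UMIs, 2.11 (1.15 to 4.03). Thus all the attractants stood higher in metformin, but in few cells for Cxcl1 and Cxcl3.

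Nlrp3 rose in macrophages from 54.0 to 109 CPM, a ratio of 2.01 (1.72 to 2.36), with thinned cells positive in 14.6% and 24.8%. Il6 went from 16 to 79 UMIs, 4.16 (2.41 to 7.63), and Il1a from 61.2 to 99.5 CPM, 1.63 (1.40 to 1.90). The 4 other genes were not called: Il1b at 1.15 (1.12 to 1.17), Il1rn at 0.878 (0.831 to 0.929), Tnf at 1.43 (1.21 to 1.70) and Ptgs2 at 1.498 (1.40 to 1.60), which lies just under the fold. Without cells that held lymphocyte transcripts, immunoglobulin included, Cxcl3 and Il6 were no longer called. Without the richest cell of each library Cxcl3 was 1.78 (0.766 to 4.46) and Tnf 1.71, past the fold, and Cxcl1 9.78. Other things differed between these macrophages: border macrophage markers summed to 358 and 541 CPM, microglia markers to 775 and 999, T cell markers to 114 and 202, and median depth was 10280 and 13235 UMIs. Their part in the ratios was not tested. Of 29 genes known to respond to dissociation, 0 were called higher and 1 lower in macrophages. The median log2 ratio of these genes was 0.105, against -0.018 over all genes, and their part was not tested.

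**Figure D4:**
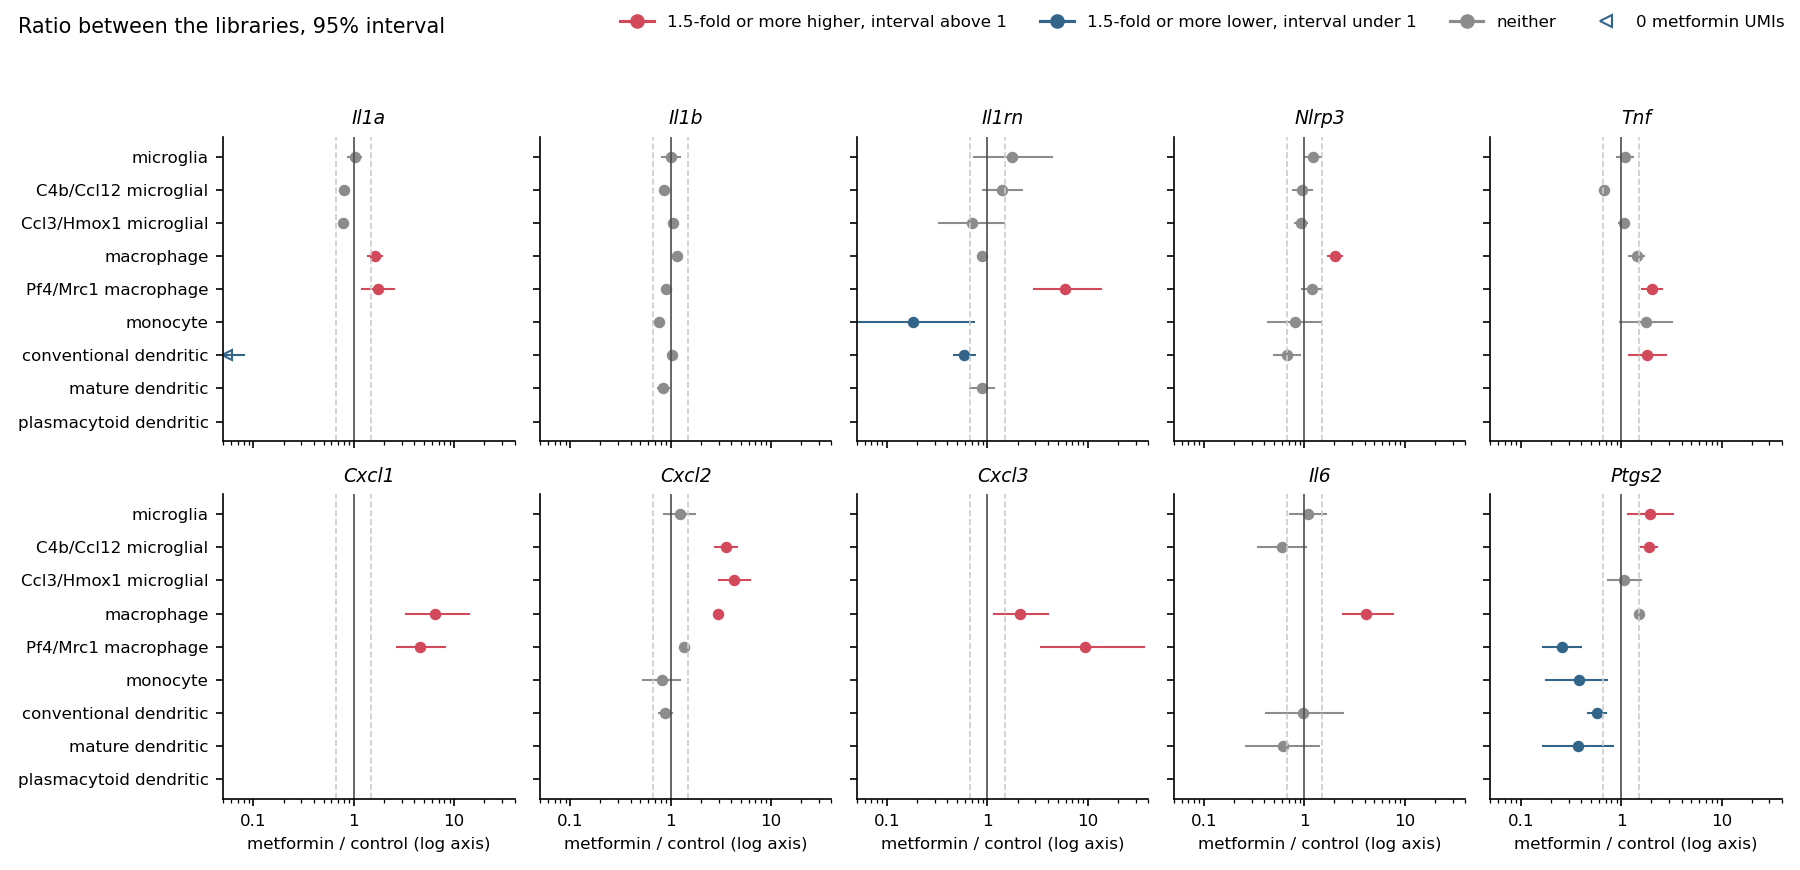
Metformin over control ratio of CPM for each gene and class with at least 20 UMIs, on a log axis, with exact 95% intervals. Red marks calls of higher, blue calls of lower and grey neither. Dashed lines stand at the fold of 1.5 in each direction. Cxcl2 in macrophages lies at 2.95 and Il1b at 1.15.

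Pf4/Mrc1 macrophages had 5 of 9 genes called higher and 1 lower, where 3.23% and 3.95% of all genes were called. Of the 5, Cxcl1, Cxcl3 and Il1rn were under the minimum of UMIs in control alone and passed it through metformin. The minimum itself could thus favour a higher ratio for them. Cxcl1 went from 17 to 96 UMIs, 4.53 (2.69 to 8.10), and Cxcl3 from 4 to 47, 9.43 (3.45 to 36.1), in 3 and 7 cells. Il1rn went from 9 to 66 UMIs, 5.89 (2.92 to 13.4), Tnf from 193 to 389 CPM, 2.01 (1.61 to 2.54), and Il1a from 80.5 to 139 CPM, 1.73 (1.20 to 2.52). Ptgs2 fell, from 93 to 30 UMIs, 0.259 (0.166 to 0.395), but 1 control cell held 67.7% of its UMIs. Cxcl2, already at its highest level in this class, was 1.35 (1.27 to 1.44) and was not called, but without the richest cell of each library it was 1.60 (1.49 to 1.72), past the fold. Cxcl1 was then 3.01 (1.47 to 6.77).

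These 51 and 73 cells also differed in other ways. Genes of the dissociation list summed to 26130 and 30147 CPM, with 7 called higher and 2 lower of 29, and B cell markers to 617 and 421 CPM. A second clustering, without the 10 genes, put 21.6% of control and 32.9% of metformin cells in a cluster led by Ccl24 and Ccl7. It held 80.0% of the Cxcl2 and 95.1% of the Il1a UMIs, with dissociation genes at 36870.5 and 46277.5 CPM. Inside it Cxcl2 was 0.880 (0.819 to 0.944) and not called. Cxcl1 was 3.71 (1.94 to 7.78), or 1.13 (0.303 to 5.14) without the richest cell of each library. Cxcl3, Il1a, Il1rn and Tnf were called higher there. The part of these genes and of the mix in the ratios was not tested. Without cells holding Cd3 or B cell surface transcripts, Ptgs2 was no longer called, and without those holding any of the lymphocyte transcripts, immunoglobulin included, Il1rn, Tnf and Ptgs2 were not.

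Cxcl2 stood higher in metformin in 2 of the 3 microglial classes. In microglia, the largest of them, it had 74 and 61 UMIs and a ratio of 1.23 (0.862 to 1.75) and was not called, and Il1a, Il1b and Nlrp3 were not called in any of the 3. Of the C4b/Ccl12 microglia's 8 genes with enough UMIs, 2 were called higher and 0 lower, where 2.72% and 2.69% of all genes were. Cxcl2 went from 80 to 323 UMIs, 3.56 (2.78 to 4.61), and Ptgs2 from 187 to 403 UMIs, 1.90 (1.60 to 2.28). Without cells that held lymphocyte transcripts, immunoglobulin included, Ptgs2 turned to 0.749 and was not called. Tnf in this class was 0.670 (0.616 to 0.727), at the edge of the fold and not called.

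In the Ccl3/Hmox1 microglia 1 of 7 genes was called higher and 0 lower, against 3.91% and 4.18% of all genes. That gene was Cxcl2, with 41 and 166 UMIs and a ratio of 4.28 (3.02 to 6.18), in 8 of 84 and 11 of 64 cells. Il1a, the gene that heads this class, was 0.776 (0.723 to 0.833). Among the other microglia 1 of 8 genes was called higher and 0 lower, against 1.25% and 1.32%: Ptgs2, with 29 and 38 UMIs and a ratio of 1.96 (1.18 to 3.29). It was not called without the richest cell of each library, where the ratio was 1.68 (0.933 to 3.04). Dissociation genes summed to 17304 and 18143 CPM in microglia, 21690 and 19667 in C4b/Ccl12 microglia and 42069 and 36228 in Ccl3/Hmox1 microglia, so the class richest in Il1a was also richest in them, and their part was not tested.

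Monocytes had 0 of 6 genes called higher and 2 lower, where 4.81% and 6.59% of all genes were called. Il1rn went from 23 to 2 UMIs, 0.180 (0.0206 to 0.728), but 1 control cell held 78.3% of the control UMIs. Ptgs2 went from 60 to 11 UMIs, 0.379 (0.180 to 0.728). The 2 genes were under the minimum of UMIs in metformin alone and passed it through control. The minimum itself could thus favour a lower ratio for them. Both ratios passed to above 1 under other cell filters or clusters, so neither direction is firm. Non-classical monocyte markers summed to 2825 and 4165 CPM and classical ones to 7256 and 5760, and the mix of these 93 and 46 cells thus differed. Dissociation genes summed to 14780 and 17482 CPM, with 6 of 27 called higher. The part of the mix and of these genes was not tested.

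In dendritic cells most of the calls were of lower levels in metformin. In conventional dendritic cells 1 of 8 genes was called higher and 3 lower, where 3.47% and 4.41% of all genes were. Il1rn fell from 90.4 to 53.4 CPM, 0.591 (0.466 to 0.749), and was called under all 11 other settings. Ptgs2 fell from 120 to 69.6 CPM, 0.580 (0.472 to 0.713), and was not called under the stricter cell filter. Il1a went from 30 UMIs to 0, at least 16.3-fold lower by a floor of 3 UMIs in the metformin library, but 1 control cell held 56.7% of the 30. It passed the minimum of UMIs through control, so the minimum itself could favour a lower ratio. Its call was lost under 5 of the 11 other settings. Tnf was higher, with 32 and 95 UMIs, 1.82 (1.21 to 2.80), but was not called under either rule that leaves out cells with lymphocyte transcripts (2.36 with immunoglobulin included, 1.54 with Cd3 and B cell surface transcripts alone).

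These cells differed in other values too. Microglia markers summed to 496 and 225 CPM in conventional dendritic cells, and type 1 dendritic markers to 1952 and 2494 CPM. A second clustering of this class, without the 10 genes, put 51.8% of control and 40.4% of metformin cells in a cluster led by Ly6i and Cxcl10, which held 95.2% of the Il1rn and 82.9% of the Ptgs2 UMIs. Inside it Il1rn was 0.777 (0.609 to 0.991) and Ptgs2 0.895 (0.713 to 1.12), neither past the fold. A cluster of 8 and 16 cells led by T cell genes, with T cell markers at 2237 and 2201 CPM, held 4 and 36 of the Tnf UMIs. The part of these markers and of the mix was not tested. Cxcl2 in this class was 0.889 (0.759 to 1.04), with 66.5% and 56.0% of its UMIs in 1 cell of each library. Leaving out cells with Cd3 or B cell surface transcripts, gave 8.53, so no direction can be read. In mature dendritic cells 0 of 4 genes were called higher and 1 lower, against 4.08% and 4.73% of all genes: Ptgs2, with 18 and 12 UMIs, 0.376 (0.165 to 0.825). It was not called without the richest cell of each library, 0.509 (0.183 to 1.39), or without cells with lymphocyte transcripts. No gene of the 10 reached 20 UMIs in plasmacytoid dendritic cells.

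Il1b was not called in any of the 8 classes in which it had enough UMIs, with ratios from 0.774 in monocytes to 1.15 in macrophages. It was called in monocytes under the stricter cell filter and in microglia without cells with lymphocyte transcripts, immunoglobulin included. Second clusters of monocytes lay on opposite sides of 1. Il1b was 0.343 (0.266 to 0.437) in that led by Prtn3 and 1.94 (1.44 to 2.61) in that led by Hes1. In macrophages, where it had 12302 and 16743 UMIs, it was the best counted of the 10 genes. The spread between mice was not measured.

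Macrophages were clustered a second time, without the 10 genes, to describe how the values varied among them. Second cluster 0 was led by S100a4, Cxcl10 and Ifit1 (91 and 53 cells), cluster 1 by Spp1, Ccl24, Ccl12 and Ccl7 (60 and 93 cells), cluster 2 by Cd79a, Igkc and Clec4e (52 and 49 cells), cluster 3 by Saa3 and Arg1 (134 and 86 cells) and cluster 5 by Gpnmb and Syngr1 (13 and 48 cells). Cluster 1 made up 16.7% of control and 27.2% of metformin macrophages. It held 66.1% of the macrophage Cxcl2 UMIs of both libraries.

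Within cluster 1, 7 of 10 genes were called higher and 0 lower, where 4.47% and 4.69% of all genes of that cluster were. Cxcl2 stood at 608 and 1776 CPM, 2.92 (2.70 to 3.16), with 27 of 60 and 65 of 93 cells positive. Nlrp3 was 75.2 and 184 CPM, 2.44 (1.93 to 3.11), and Ptgs2 480 and 866 CPM, 1.80 (1.64 to 1.98). Of the 7, Cxcl1, Cxcl3 and Il6 reached 20 UMIs only through metformin, so the minimum itself favoured a higher ratio for them. Il6 had 1 and 39 UMIs, Cxcl1 3 and 60 and Cxcl3 7 and 36, each in 1 control cell and in 5 to 7 metformin cells. The other one was Il1a at 1.79 (1.46 to 2.20).

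Cluster 2 had 5 of 8 genes called higher and 0 lower, where 4.99% and 3.74% of all genes were, with Cxcl2 at 283 and 1965 CPM, 6.95 (5.91 to 8.22) or 10.8 without the richest cells, and Il1a from 16 to 80 UMIs, 4.47 (2.59 to 8.20). Of the 5, Il1a and Il6 were under the minimum of UMIs in control alone and passed it through metformin. B cell markers summed to 378 and 433 CPM there, against 45.6 and 59.5 CPM in cluster 1, and their part was not tested. Cluster 0 had 3 of 7 genes called higher and 1 lower, against 3.9% and 3.69% of all genes. Tnf was 3.47 (1.99 to 6.24), Ptgs2 1.93 (1.21 to 3.10) and Nlrp3 1.77 (1.01 to 3.12). Cxcl2, low in that cluster with 27 and 5 UMIs, was 0.306 (0.0920 to 0.806), and 0.0943 (0.00226 to 0.597) without the richest cell of each library.

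Clusters 3 and 5 each had 0 of 7 genes called higher and 3 lower. The shares of all genes were 3.11% higher and 3.52% lower in cluster 3, and 2.95% and 4.93% in cluster 5. In cluster 3, Cxcl2 was 0.391 (0.287 to 0.524), Il1a 0.506 (0.294 to 0.838) and Il1rn 0.390 (0.322 to 0.470), with Il1rn at 424 and 165 CPM. Il1b there was 0.740 (0.697 to 0.785) and was not called. Cluster 5 rests on 13 control cells. Its Cxcl2 was 0.153 (0.112 to 0.209), with 3 positive control cells, and 0.544 (0.333 to 0.923) without the richest cell of each library. Il1a was 0.218 (0.13 to 0.369) and Il1b 0.384 (0.346 to 0.426), from 2918 to 1119 CPM, while Il1rn at 1.39 (0.834 to 2.45) was not called. Cxcl1 and Cxcl3 had too few UMIs in clusters 0, 3 and 5. Dissociation genes summed to 12249 and 17298 CPM in cluster 0, 15291 and 17182 in cluster 1 and 19164 and 19102 in cluster 2. In cluster 3 they summed to 15149 and 15391 CPM, and in cluster 5 to 18944 and 13992 CPM. The part of these genes was not tested. The differences between clusters were not tested, since each is 1 library against 1.

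**Figure D5:**
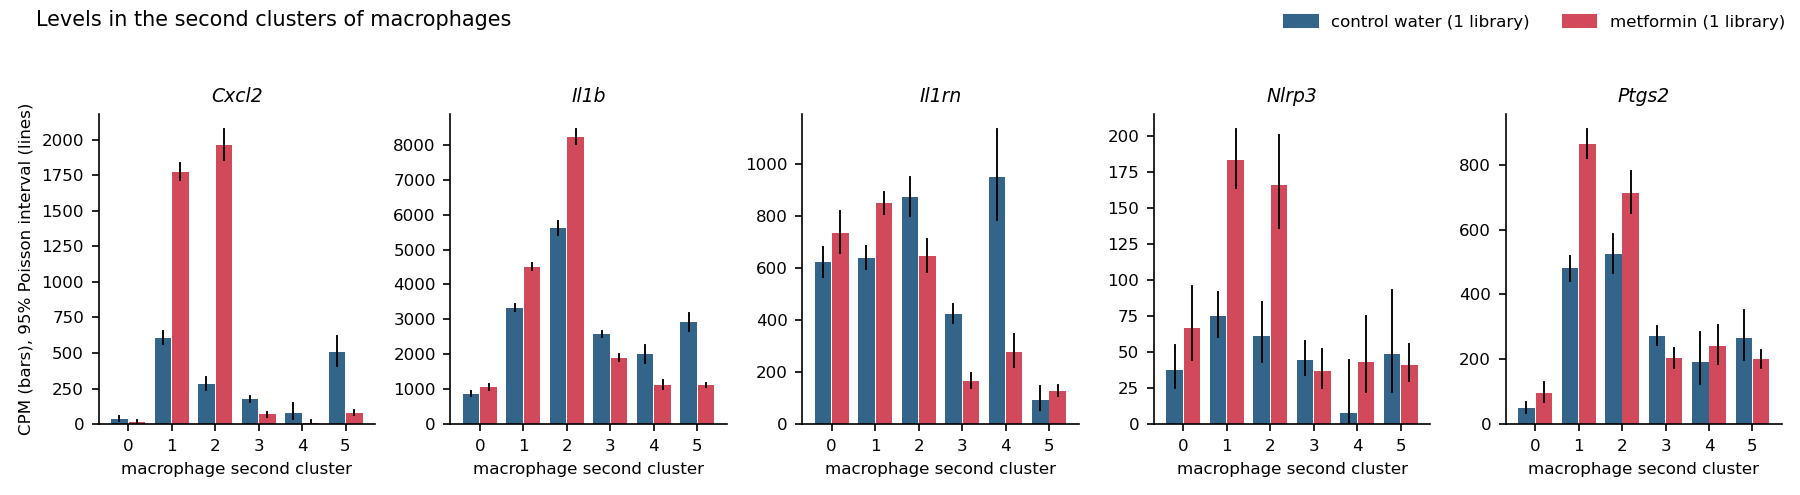
CPM of Cxcl2, Il1b, Il1rn, Nlrp3 and Ptgs2 (bars) in the second clusters 0 to 5 of macrophages, control water in blue and metformin in red, with 95% Poisson intervals (lines). Cxcl2 is higher in metformin in clusters 1 (608 and 1776 CPM) and 2 (283 and 1965 CPM) and lower in clusters 0, 3 and 5, the last with 13 control cells.

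A second clustering of all microglial states gave 6 clusters. Cxcl2 had ratios from 1.62 to 4.71 in 4 of them and 1.03 (0.601 to 1.72) in the largest, and it had too few UMIs in the last. The lowest of the 4, 1.62 (1.05 to 2.58), rested on 3 control and 9 metformin positive cells. It was 1.52 (0.562 to 5.14) without the richest cell of each library. The ratio of 3.99 (2.81 to 5.77) in the cluster led by Rrad rested on 9 and 10 positive cells. A cluster led by Nfkbia, Dusp2 and Tnfaip3 (167 and 154 cells) had Cxcl2 at 41.5 and 142 CPM, 3.42 (2.50 to 4.73), Ptgs2 at 43.0 and 120 CPM, 2.79 (2.04 to 3.87), and Il1b at 732 and 259 CPM, 0.354 (0.310 to 0.403). A cluster led by Spp1 and Lgals3 (29 and 63 cells) had Il1b at 403 and 755 CPM, 1.88 (1.58 to 2.24), and Tnf at 502 and 150 CPM, 0.299 (0.241 to 0.370), or 0.465 without the richest cells. The ratio of Il1b thus lay on opposite sides of 1 in these clusters, while its ratios in the 3 microglial classes lay between 0.866 and 1.05. Among conventional dendritic cells, those led by Xcr1 (19 and 52 cells), which are type 1 dendritic cells by their markers, had Il1b at 334 and 1358 CPM, 4.07 (3.38 to 4.94), with 14 of 19 and 36 of 52 cells positive.

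Of 90 other genes of these pathways, 89 were measured. In macrophages 3 were called higher and 1 lower of 72 with enough UMIs, where 3.29% and 3.67% of all genes were. The median log2 ratio was -0.12, against -0.02 over all genes. Il18bp, which binds interleukin-18, was 1.65 (1.52 to 1.79), Hpgds, a prostaglandin D2 synthase, 1.51 (1.25 to 1.82), and Hpgd, which degrades prostaglandins, 1.69 (1.02 to 2.84). Tlr4, the receptor for bacterial lipopolysaccharide, was 0.591 (0.439 to 0.794). All 34 signalling and NF-kB genes had enough UMIs there, and 0 were called higher and 1 lower.

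For the other classes the shares of all genes called higher and lower follow each count. Microglia had 0 higher and 1 lower of 69, against 1.25% and 1.32%. The lower gene was the prostaglandin synthase Ptges2 at 0.631 (0.397 to 0.979). C4b/Ccl12 microglia had 4 higher and 0 lower of 68, against 2.72% and 2.69%. The interleukin-6 family cytokine Lif went from 4 to 24 UMIs and Cxcr2, the receptor of the attractants, from 12 to 34 UMIs. Lif and Cxcr2 were under the minimum of UMIs in control alone and passed it through metformin. The minimum itself could thus favour a higher ratio for them. Il18bp was 1.63 (1.38 to 1.94) and the prostaglandin E2 receptor Ptger4 1.69 (1.17 to 2.46). Ccl3/Hmox1 microglia had 3 higher and 2 lower of 59, against 3.91% and 4.18%. The interleukin-6 family cytokine Osm was 1.57 (1.31 to 1.88) and the adaptor Myd88 0.554 (0.374 to 0.811). Pf4/Mrc1 macrophages had 0 higher and 4 lower of 55, against 3.23% and 3.95%. All 4 were signalling genes: Tnfaip2, Tnip1, Cebpd and Irak4. Of these, Tnfaip2, Tnip1 and Irak4 were under the minimum of UMIs in metformin alone, which could favour a lower ratio for them.

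In conventional dendritic cells, where 3.47% and 4.41% of all genes were called, 0 of 66 were higher and 8 lower. They included Osm at 0.291 (0.209 to 0.401), Cd14, a co-receptor for lipopolysaccharide, at 0.293 (0.222 to 0.385), the NF-kB inhibitor Nfkbia at 0.660 (0.602 to 0.723) and Socs3, an inhibitor of interleukin-6 signalling, at 0.648 (0.566 to 0.742). Osm and Cd14 were also lower in monocytes, at 0.241 (0.111 to 0.464) and 0.250 (0.187 to 0.329). With 86 and 10 UMIs, Osm was there under the minimum in metformin alone. There 5 genes were called higher and 4 lower of 56, against 4.81% and 6.59% of all genes. Mature dendritic cells had 3 higher and 0 lower of 40, against 4.08% and 4.73%. Among the 3 was Casp1, the protease that cuts interleukin-1 beta, from 7 to 31 UMIs. Casp1 and the signalling gene Cebpb (13 and 51 UMIs) were under the minimum in control alone and passed it through metformin. The minimum itself could thus favour a higher ratio for them. Plasmacytoid dendritic cells had 0 higher and 8 lower of 40, where 4.57% and 5.76% of all genes were called. Their macrophage markers summed to 3679 and 349 CPM, and the part of these was not tested.

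The genes most like each of the 10 were found by the correlation of log2(CPM + 10) over 19 sums of class and library, which share library and depth, so the values are descriptions. Cxcl1 and Cxcl3 were alike (Pearson r = 0.94), and both were most like Ms4a14 (r = 0.98 and 0.95). These values rest on few sums. Cxcl1 was above the added 10 CPM only in Pf4/Mrc1 macrophages (30.4 and 138 CPM) and metformin macrophages (15.4 CPM). Cxcl3 was above it only in metformin Pf4/Mrc1 macrophages (67.5 CPM). Il1a and Tnf shared Nes among their closest genes (r = 0.91 for each), and Il1a was also close to Egr1 (r = 0.91) and Skil (r = 0.90). Tnf and Nlrp3 shared Ccl2 (r = 0.93 and 0.90), and Nlrp3 was closest to Plek (r = 0.94). Il1b was closest to Dusp1 (r = 0.90), and of the 10 genes to Ptgs2 (r = 0.83). Cxcl2 was closest to Ccr1 (r = 0.89), Il1rn to Gdap10 (r = 0.91), Ptgs2 to Gla (r = 0.87) and Il6 to Dok1 (r = 0.82).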

How the data were processed

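The deposited files are UMI counts per gene and cell for 2 libraries of sorted cells, 1 for DW control water and 1 for metformin. The authors made these counts with Cell Ranger and used Seurat and the mm10 build, per the submitters' processing notes. The matrix headers give software version 3.0.0. Aligner settings and annotation: not given in the sources used here. Together the matrices hold 6174 and 5473 barcodes and 49651404 and 47142356 UMIs.

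Cells with at least 300 genes and at most 10% mitochondrial UMIs were kept. Doublets called with an expected rate of 5% were removed (62 and 37 cells, 1.14% and 0.803%). Both libraries were clustered together with scanpy 1.11.5 and python-igraph 0.11.9 (2000 variable genes without the 10 described, 30 components, 15 neighbours, resolution 1) and named from marker lists. The second clusters were added after seeing the data. Raw counts were summed per class and library, with exact Poisson intervals for levels, exact Clopper-Pearson intervals for shares and exact conditional intervals for ratios, all at 95% (scipy 1.17.1). Shares were taken after thinning each cell to 3700 UMIs, which left out between 0 and 102 cells of a compared class in a library.

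Pathway genes were named by the rule of at most 4 per role and class among those called, a selection of which is printed. The closest genes were the 3 with the highest correlation for each gene. The 10 genes, the lists and the tests were chosen with earlier results of these data known. Alternatives changed the cell filters, doublets, clustering, scaling (TMM factors, edgeR 4.0.16, used for the factors only), the count minimum and single rich cells, and 2 rules on lymphocyte transcripts were chosen after seeing the data. The call rule was tested on simulated data.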

Additional observations from a re-analysis of the deposited data

Results flagged for a closer look

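Some genes were called in opposite directions in different classes, and these differences were not tested because each group is 1 library. Il1a was higher in metformin in macrophages (1.63) and Pf4/Mrc1 macrophages (1.73), and its ratio was 0 in conventional dendritic cells. Il1rn was 5.89 in Pf4/Mrc1 macrophages but 0.180 in monocytes and 0.591 in conventional dendritic cells. Ptgs2 was 1.96 in microglia and 1.90 in C4b/Ccl12 microglia, and 0.259 in Pf4/Mrc1 macrophages, 0.379 in monocytes, 0.580 in conventional dendritic cells and 0.376 in mature dendritic cells.

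Within macrophages the second clusters also went opposite ways. Cxcl2 was 2.92 in cluster 1 and 6.95 in cluster 2, but 0.306 in cluster 0, 0.391 in cluster 3 and 0.153 in cluster 5 (0.544 without the richest cell of each library, from 13 control cells). Il1a was 1.79 and 4.47 in clusters 1 and 2, and 0.506 and 0.218 in clusters 3 and 5.

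High levels also lay outside the compared classes. The 19 control basophils held Cxcl2 at 7298 CPM, Il1b at 5976 CPM, Il6 at 2244 CPM and Ptgs2 at 966 CPM, and the 3 metformin basophils Ptgs2 at 919 CPM. Of the basophil Cxcl2 UMIs, 55.6% were in 1 cell. The 45 control neutrophils held Il1b at 3720 CPM, and the 14 metformin mast cells held Il6 at 143 CPM.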

How the results depend on the processing

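Under the 11 other settings, from 13 to 20 pairs were called higher (16 as reported) and from 5 to 9 lower (7), and macrophages had 6 or 7 genes higher and 0 lower, though not always the same genes, since Cxcl3 gave way to Tnf without the richest cell and Cxcl3 and Il6 to Tnf and Ptgs2 without cells with lymphocyte transcripts. Of the 23 called pairs, 10 kept their call under every setting that gave a value: Cxcl2 in C4b/Ccl12 microglia, Ccl3/Hmox1 microglia and macrophages, Cxcl1, Il1a and Nlrp3 in macrophages, Cxcl1, Cxcl3 and Il1a in Pf4/Mrc1 macrophages and Il1rn in conventional dendritic cells. Of these, Cxcl1 in both macrophage classes and Cxcl3 in Pf4/Mrc1 macrophages passed the minimum of UMIs through metformin. The setting without a minimum cannot take a call away, so it does not address this. Inside the Pf4/Mrc1 cluster led by Ccl24 and Ccl7, Cxcl1 was 1.13 (0.303 to 5.14) without the richest cell of each library. The other 13 called pairs lost their call under at least 1 setting, and the cause was not tested. Directions reversed for Ptgs2 in C4b/Ccl12 microglia (0.749 without cells with lymphocyte transcripts), Il1rn in monocytes (1.15 with the looser mitochondrial filter, 1.42 at resolution 2) and Ptgs2 in monocytes (1.65 with the looser filter).

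The class with the highest level stayed the same for all genes except Il1b under 4 settings, and except Cxcl1, Il1b and Il6 without cells with lymphocyte transcripts. That last rule, immunoglobulin included, left out from 8.57% to 100% of a class, and the narrower rule on Cd3 and B cell surface transcripts at most 22.9%. Pathway calls ranged from 11 to 29 higher (18) and 18 to 38 lower (28).

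No paired analysis was possible because each group is 1 library, and for the same reason no replicate was left out. Genes under 20 UMIs in a class, such as Cxcl1 and Cxcl3 outside the macrophage classes, were not compared.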

Other observations

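Mast cells, fibroblasts and T cells held some of these transcripts too. Il6 was found in 8 of 14 control and 7 of 14 metformin mast cells, at 80.9 and 143 CPM. Ptgs2 stood at 143 and 121 CPM in 22 and 27 fibroblasts, with 43.5% and 68.3% of it in 1 cell of each library. Cxcl1 was at 0 UMIs in control and 17 in metformin fibroblasts. Of all Tnf UMIs, 7.8% were in CD4 T cells, about as many as the 7.6% in microglia.

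Neutrophils held Il1rn at 187 and 244 CPM, with 19.9 and 16.6 Il1b counts for each Il1rn count, between the ratios of macrophages and those of Ccl3/Hmox1 microglia. Cxcl2 stood in them at 1581 and 487 CPM from 457 and 14 UMIs, and Cxcl1 at 0 UMIs in both libraries.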
